A study of Rhododendron with 15 samples.

Results

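The gene described here encodes a granule-bound starch synthase of Rhododendron leaves and is listed as MSTRG.5792. It was picked by its identifier from the deposited table because of its levels across the groups, and it is 1 of 29985 genes listed there. Polyadenylated RNA was sequenced from leaves of the variety 'xiaotaohong', a woody ornamental. The groups were 35 °C with melatonin, 40 °C with melatonin, and 25 °C, 35 °C and 40 °C without melatonin, with 3 libraries in each. Melatonin is an indole compound that plants make from tryptophan, and the study's title places it in the context of tolerance to high temperature. Neither dose nor duration of any treatment is stated in the labels, and they do not say whether replicates were separate plants, so a p-value measures the spread between these libraries, which may be technical.

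Starch is built from branched amylopectin and mostly linear amylose. Granule-bound starch synthase sits on the growing granule, adds glucose from ADP-glucose to linear chains and makes the amylose, and plants that lack it in storage tissue have waxy, amylose-poor starch. In leaves the granules lie in chloroplasts, are laid down in the light and are broken down at night. In Arabidopsis the transcript of this enzyme cycles over the day, and the clock factors CCA1 and LHY are known to act on its gene.

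MSTRG.5792 corresponds to the annotated gene Rhsim03G0214900 and lies on chromosome 3 from 33743555 to 33747716 on the minus strand, a span of 4162 bases in the coordinates of the deposited table (genome build not given in the sources used here). In it, the gene carries the orthology term K13679 and Gene Ontology terms for starch synthase activity and the chloroplast starch grain. Only 1 annotated gene name falls in the locus, so its counts are not a sum over several named genes.

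The transcript was abundant at 25 °C, lower at 35 °C and far lower again at 40 °C, and at 40 °C with melatonin it stood near its 35 °C level. Because the gene was chosen for these values, they are given as a description and were not tested. Levels are in FPKM, fragments per kilobase of transcript and 1000000 fragments, as the authors deposited them. Across the temperatures without melatonin, the 3 libraries held 915, 959 and 922 FPKM at 25 °C, 274, 272 and 276 FPKM at 35 °C, and 3.63, 4.15 and 4.06 FPKM at 40 °C. Every step up in temperature put all 3 libraries below all 3 of the cooler group.

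With melatonin, the 35 °C libraries held 199.8, 198 and 199 FPKM, against 274, 272 and 276 FPKM at 35 °C without it. All 3 melatonin libraries at this temperature were the lower ones. With melatonin at 40 °C the libraries held 338, 338 and 347 FPKM, against 3.63, 4.15 and 4.06 FPKM at 40 °C without it. Here the melatonin libraries were the higher ones, by far more than the spread within either group.

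**Figure D1:**
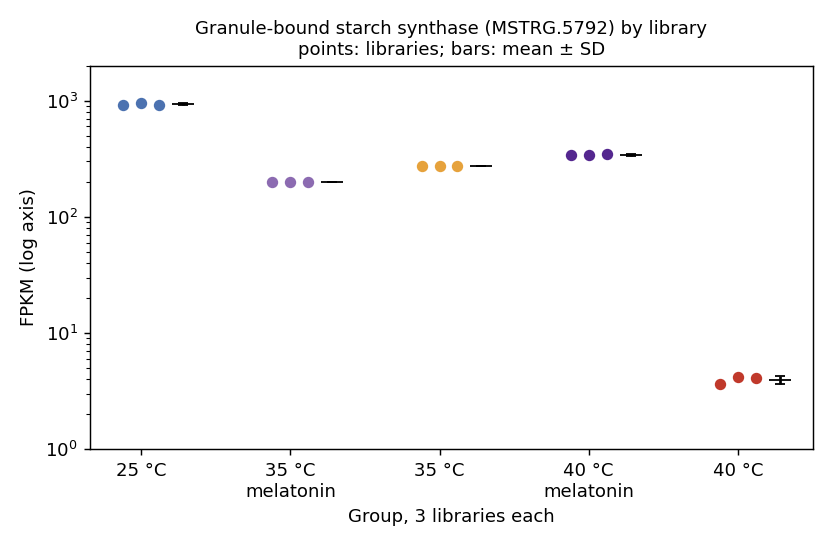
Level of MSTRG.5792 in each library, in FPKM on a log axis, for the 5 groups of 3 libraries; points are libraries and bars show mean ± SD. Libraries at 40 °C with melatonin lie between 338 and 347 FPKM, and those at 40 °C without it between 3.63 and 4.15 FPKM, below every other library.

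From high to low, the group means were 932 ± 23.3 FPKM at 25 °C, 341 ± 4.86 FPKM at 40 °C with melatonin, 274 ± 2.26 FPKM at 35 °C, 199 ± 0.797 FPKM at 35 °C with melatonin and 3.95 ± 0.278 FPKM at 40 °C (SD, n = 3 each). No neighbouring groups in this order overlapped. The narrowest gap, between the lowest library at 40 °C with melatonin and the highest at 35 °C, was 62.03 FPKM, larger than the SD of any group. The libraries of a group differed little, with a coefficient of variation between 0.400% at 35 °C with melatonin and 7.04% at 40 °C.

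The fitted differences, log2 fold changes of counts scaled to the library total by TMM, had the same order. The log2 fold change was -1.83 ± 0.04 for 35 °C over 25 °C, -7.79 ± 0.05 for 40 °C over 25 °C and -5.97 ± 0.05 for 40 °C over 35 °C (SE, n = 3 per group). On the FPKM scale, the 40 °C mean was 0.424% of the 25 °C mean, a 236-fold difference, and the 35 °C mean was 29.4% of it. Melatonin against none gave -0.57 ± 0.04 at 35 °C and 6.24 ± 0.05 at 40 °C, so the sign differed between the temperatures. At 40 °C the mean FPKM with melatonin was 86.4 times that without.

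Melatonin-treated leaves did not show the order of temperatures seen without melatonin: 40 °C with melatonin stood above 35 °C with melatonin by 0.84 ± 0.04 on the log2 scale. Both melatonin groups remained below the 25 °C libraries, at 36.6% of the 25 °C mean FPKM for 40 °C with melatonin and 21.4% for 35 °C with melatonin. These comparisons share the 25 °C, 35 °C or 40 °C libraries with those above and are not independent of them.

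Counts behind the levels were high in all groups. In the 25 °C libraries the gene received between 125839 and 134015 counts, in the 35 °C libraries between 43111 and 45679, and in the 40 °C libraries 528, 665 and 652. With melatonin it received between 28219 and 29854 counts in the 35 °C libraries and between 44827 and 50732 in the 40 °C libraries. The smallest of these, 528 counts, has an exact Poisson 95% interval of 484 to 575, which covers counting error only, so the low level at 40 °C is well above 0. As a share of all counts in the library, the gene took 0.226% ± 0.0056 at 25 °C, 0.0663% ± 0.00067 at 35 °C and 0.000965% ± 0.000067 at 40 °C (SD, n = 3). It took 0.0484% ± 0.00013 at 35 °C with melatonin and 0.0834% ± 0.0011 at 40 °C with melatonin.

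Ranked by FPKM among all listed genes of a library, MSTRG.5792 held places 44 to 47 in the 25 °C libraries, 172 to 190 in those of 35 °C and 13531 to 14172 in those of 40 °C. With melatonin it held places 270 to 271 in the 35 °C libraries and 128 to 133 in the 40 °C libraries. Among the 26183 genes that passed the count filter, 566 had a lower log2 fold change at 40 °C over 25 °C, 1407 at 35 °C over 25 °C and 2049 for melatonin at 35 °C. For melatonin at 40 °C, 281 genes had a higher one. These ranks use the contrasts the gene was chosen on and describe its place only.

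The order of the groups comes from the levels the gene was chosen on, so the counts of genes that share it are a description only. Having all 40 °C libraries below all others was met by 25.4% of tested genes, and 14.2% had all 25 °C libraries above all others. The full sequence, 25 °C, 40 °C with melatonin, 35 °C, 35 °C with melatonin and 40 °C from high to low with no overlap between neighbours, was met by 18 of the 26183 genes, or 0.0687%, MSTRG.5792 included. It and 1 other gene of the 18, a feruloyl CoA ortho-hydroxylase gene (MSTRG.11895), were lower at 40 °C than at 25 °C by 5 or more on the log2 scale. MSTRG.11895, whose enzyme family makes coumarins such as scopoletin, was far less abundant, at 1.04 FPKM at 40 °C with melatonin, 0.0150 FPKM at 40 °C and 9.38 FPKM at 25 °C. Another of the 18, the A subunit of the chloroplast glyceraldehyde-3-phosphate dehydrogenase (MSTRG.20127), an enzyme of the Calvin cycle, had 335 FPKM at 40 °C, against 1048 FPKM at 25 °C. Both genes were picked out after their values were seen.

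Another 6 genes are described as starch synthases, and none matched the range of MSTRG.5792. All 6 (MSTRG.4144, MSTRG.14122, MSTRG.22652, MSTRG.817, MSTRG.17625 and MSTRG.17632) passed the count filter and were tested, by edgeR's quasi-likelihood test with p-values adjusted over all tested genes by Benjamini-Hochberg. At 40 °C against 25 °C, 2 fell and 3 rose, where 38.6% of all tested genes fell and 37.3% rose at adjusted p under 0.05, 75.9% in either direction. Those that fell are the other pair described as granule-bound.

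MSTRG.4144 (chromosome 2, 44658001 to 44668523), described as granule-bound starch synthase 1-like, carries the same enzyme number in the table as MSTRG.5792. It averaged 4.06 ± 0.346 FPKM at 40 °C and 19.2 ± 0.590 FPKM at 25 °C (SD, n = 3 each), a fall of -2.15 ± 0.09 on the log2 scale (adjusted p = 1.9e-11). At 35 °C it averaged 8.75 ± 0.321 FPKM and also fell against 25 °C, by -1.20 ± 0.09 (adjusted p = 5.6e-08). With melatonin at 40 °C it averaged 7.25 ± 0.689 FPKM, against 4.06 ± 0.346 FPKM without, a rise of 0.64 ± 0.09 (adjusted p = 2.1e-05). At 35 °C it averaged 9.24 ± 0.915 FPKM with melatonin and 8.75 ± 0.321 FPKM without, and no change was called. Its direction was that of MSTRG.5792 in these 3 called comparisons, over a narrower range. At 40 °C against 35 °C, both with melatonin, it went the other way and was called lower (-0.29 ± 0.09, adjusted p = 0.014), a call lost without replicate 3 of 35 °C with melatonin or of 40 °C with melatonin (adjusted p = 0.076 and 0.067).

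MSTRG.14122 (chromosome 8, 7669064 to 7676426) is described as granule-bound too, but its enzyme number in the table is that of other starch synthases. It averaged 19.6 ± 0.493 FPKM at 40 °C and 43.4 ± 2.34 FPKM at 25 °C, a fall of -1.06 ± 0.05 (adjusted p = 1.4e-10), while 35 °C, at 42.5 ± 1.02 FPKM, was not called different from 25 °C. For melatonin its signs were those of MSTRG.5792: 32.0 ± 0.958 FPKM with and 42.5 ± 1.02 FPKM without it at 35 °C (log2 fold change -0.51 ± 0.05, adjusted p = 7.5e-06), and 37.4 ± 2.83 FPKM with and 19.6 ± 0.493 FPKM without it at 40 °C (0.74 ± 0.05, adjusted p = 2.1e-08). The difference of its melatonin effects, 1.25 ± 0.08, passed the test of the interaction (adjusted p = 5.6e-09).

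None of the 4 synthase genes not described as granule-bound was called lower at 40 °C than at 25 °C. The soluble starch synthase gene MSTRG.22652, whose class extends amylopectin chains, averaged 18.5 ± 1.05 FPKM at 40 °C and 17.9 ± 0.554 FPKM at 25 °C, a rise of 0.14 ± 0.05 (adjusted p = 0.028) that was lost on the FPKM scale (adjusted p = 0.46 by limma). It was highest at 40 °C with melatonin, with 37.9 ± 1.26 FPKM, against 18.5 ± 1.05 FPKM without (0.84 ± 0.05, adjusted p = 3.9e-09). At 35 °C, MSTRG.22652 was called lower with melatonin than without (-0.26 ± 0.05, adjusted p = 0.0024). That call was lost on the FPKM scale (adjusted p = 0.057 by limma). Its melatonin signs were thus those of MSTRG.5792 and MSTRG.14122. The difference of its melatonin effects, 1.1 ± 0.07, passed the test of the interaction (adjusted p = 1.8e-08). Of 3 genes for starch synthase 4, a class tied to the start of granules in Arabidopsis, MSTRG.817 averaged 11.4 ± 1.34 FPKM at 40 °C and 9.01 ± 1.38 FPKM at 25 °C (0.43 ± 0.11, adjusted p = 0.0032). MSTRG.17625 averaged 4.51 ± 1.02 FPKM at 40 °C and 1.98 ± 1.36 FPKM at 25 °C (adjusted p = 0.029), a call lost without replicate 1 or 2 of the 40 °C group (adjusted p = 0.074 and 0.056). MSTRG.17632, between 3.81 and 6.23 FPKM in every library, was called in none of the comparisons.

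**Figure D2:**
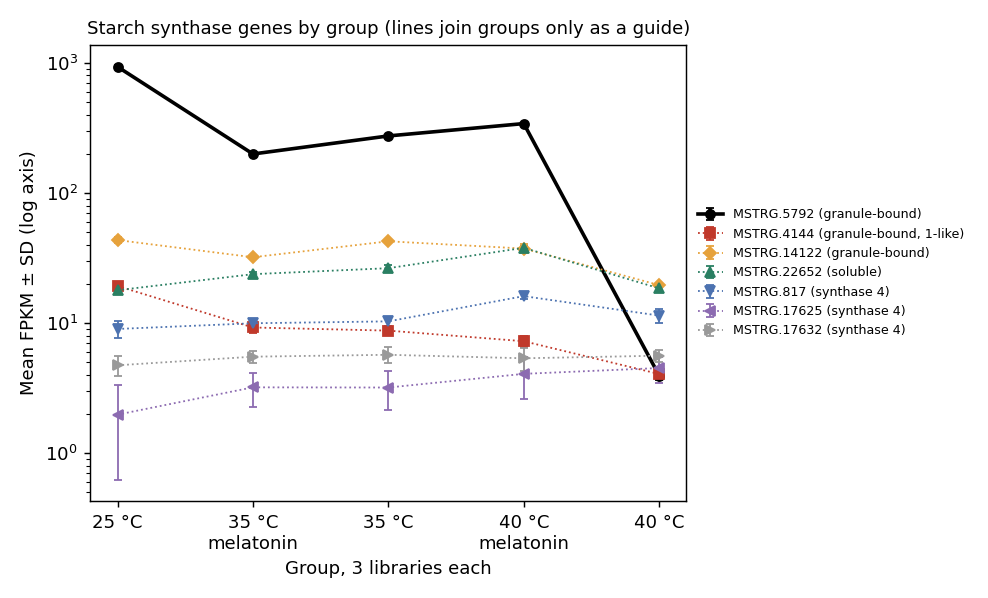
Mean FPKM ± SD on a log axis for MSTRG.5792 (solid line) and the 6 other starch synthase genes (dotted lines) in the 5 groups, 3 libraries each. MSTRG.5792 lies above the others in 4 groups, and at 40 °C it has the lowest mean, 3.95 FPKM, beside 4.06 FPKM for MSTRG.4144, within their SD.

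MSTRG.5792 made up most starch synthase transcript per length except at 40 °C. Of the FPKM summed over all 7 genes, its share was 90.6% ± 0.400 at 25 °C, 73.9% ± 0.651 at 35 °C, 5.85% ± 0.522 at 40 °C, 70.4% ± 0.306 at 35 °C with melatonin and 75.9% ± 0.839 at 40 °C with melatonin (SD, n = 3). The other 6 genes together summed to 63.7 ± 1.65 FPKM at 40 °C and 96.3 ± 3.57 FPKM at 25 °C, and to 108 ± 3.58 FPKM at 40 °C with melatonin. The 7 genes are related in sequence, and how the counting treated reads shared between them is not stated. This limits the level of MSTRG.5792 at 40 °C, where its mean was the lowest of the 7. The others had means of 4.06 to 19.6 FPKM there.

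The wider starch pathway moved in both directions at 40 °C. Beside it, 19 genes of starch synthesis and 17 of starch breakdown were listed from their descriptions, and 17 of each were tested. At 40 °C against 25 °C, 7 synthesis genes rose, 6 fell and 4 were not called, with a median log2 fold change of 0.10, beside -0.01 over all tested genes. Of the breakdown genes 7 rose, 6 fell and 4 were not called, with a median of 0.18. Both lists held shares of calls close to those of all tested genes in each direction, 37.3% and 38.6%.

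Upstream of the synthases, ADP-glucose pyrophosphorylase (glucose-1-phosphate adenylyltransferase), built of large and small subunits, makes their substrate. The large-subunit gene MSTRG.8740 averaged 0.849 ± 0.135 FPKM at 40 °C and 8.07 ± 0.551 FPKM at 35 °C, a fall of -3.09 ± 0.14 (adjusted p = 4.3e-11). With melatonin at 40 °C it averaged 2.04 ± 0.146 FPKM, against 0.849 ± 0.135 FPKM without, a rise of 1.07 ± 0.13 (adjusted p = 6.1e-06). That level was below the 5.38 ± 0.268 FPKM at 35 °C with melatonin, with a log2 fold change of -1.33 ± 0.13 (adjusted p = 5.5e-07). Branching enzymes, which make the branch points of amylopectin, went the other way in places. MSTRG.10053 averaged 82.0 ± 1.56 FPKM at 40 °C and 30.3 ± 1.36 FPKM at 35 °C (1.59 ± 0.05, adjusted p = 1.1e-12), and 29.4 ± 1.29 FPKM with melatonin at 40 °C, against 82.0 ± 1.56 FPKM without (-1.67 ± 0.05, adjusted p = 1.4e-12). At 35 °C against 25 °C, a branching enzyme-like locus with more than 1 gene name, MSTRG.11021, rose by 1.53 ± 0.15 (adjusted p = 1.2e-06). Branching enzyme genes split at 40 °C against 25 °C. MSTRG.7330, also with more than 1 gene name, fell from 52.8 ± 1.68 to 37.5 ± 1.22 FPKM (-0.40 ± 0.04, adjusted p = 7.7e-08). MSTRG.10053 (1.44), MSTRG.11021 (2.78) and RhsimUnG0248600 (0.94) rose. MSTRG.7330 and RhsimUnG0248600 were named after their values were seen.

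Beta-amylases cut maltose from glucan chains, though not every member of the family is active. The 8 tested genes so described split at 40 °C against 25 °C into 3 that rose, 3 that fell and 2 not called. Of all tested genes, 37.3% rose and 38.6% fell in that comparison. With melatonin against none at 40 °C, 2 rose, 5 fell and 1 was not called, beside 32.9% and 26.2% of all tested genes. MSTRG.2591, described as beta-amylase 4, averaged 1243 ± 30.6 FPKM at 40 °C and 243 ± 1.98 FPKM at 25 °C (2.44 ± 0.03, adjusted p = 2.8e-17). With melatonin at 40 °C it averaged 330 ± 2.95 FPKM, against 1243 ± 30.6 FPKM without (-2.11 ± 0.03, adjusted p = 5.0e-16). Melatonin at 35 °C put it at 127 ± 3.30 FPKM, against 216 ± 4.004 FPKM without (-0.88 ± 0.03, adjusted p = 1.4e-10), the same sign as at 40 °C and as for MSTRG.5792 at 35 °C. Another beta-amylase gene, MSTRG.2329, averaged 121 ± 7.65 FPKM at 40 °C and 32.9 ± 2.03 FPKM at 25 °C (1.97 ± 0.05, adjusted p = 1.2e-13), and it rose at 35 °C too (1.48 ± 0.05, adjusted p = 2.5e-11). Those that fell at 40 °C against 25 °C, as MSTRG.5792 was lower, were MSTRG.15706 (-0.74, adjusted p = 6.2e-10), MSTRG.18567 (-0.72, adjusted p = 1.2e-05) and MSTRG.6736 (-0.46, adjusted p = 0.0008), named after their values were seen. Beta-amylase 6 (MSTRG.12356) fell at 35 °C against 25 °C (-0.63 ± 0.05, adjusted p = 4.2e-08), and MSTRG.15706, also named beta-amylase 4, was lower at 40 °C than at 35 °C when both had melatonin (-0.57 ± 0.04, adjusted p = 4.2e-08).

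Phosphoglucan phosphatases remove phosphate from the granule surface during breakdown. MSTRG.17142 fell to 4.41 ± 0.137 FPKM at 40 °C, against 13.8 ± 0.330 FPKM at 35 °C (-1.49 ± 0.06, adjusted p = 1.5e-11), and it averaged 11.8 ± 0.361 FPKM with melatonin at 40 °C, against 4.41 ± 0.137 FPKM without, a rise of 1.22 ± 0.06 (adjusted p = 2.6e-10). The DSP4 gene MSTRG.5011 was higher at 40 °C than at 35 °C when both had melatonin, at 36.0 ± 1.80 and 8.97 ± 0.434 FPKM (2.07 ± 0.08, adjusted p = 2.2e-11).

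**Figure D3:**
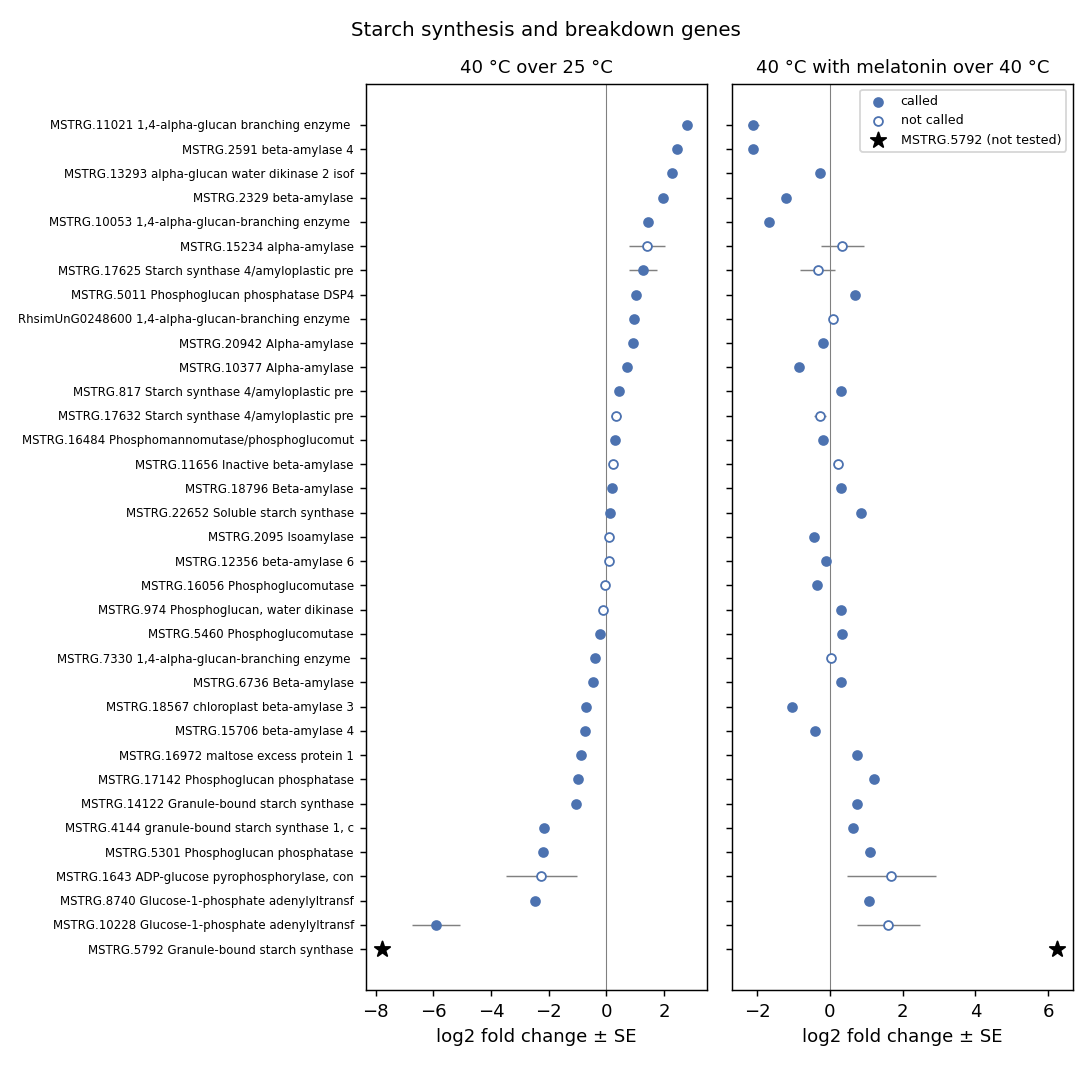
Log2 fold change ± SE of 34 starch synthesis and breakdown genes and of MSTRG.5792 (star, not tested) for 40 °C over 25 °C (left) and 40 °C with melatonin over 40 °C (right); filled points are called at adjusted p under 0.05. MSTRG.5792 lies at -7.79 and 6.24, and the other genes spread to both sides of 0 in both panels, which share the 40 °C libraries.

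Under moderate heat without melatonin, 6 synthesis genes rose and 4 fell of 17 at 35 °C against 25 °C, and 5 breakdown genes rose and 6 fell of 17, where 25.5% of all tested genes rose and 23.6% fell, 49.1% in either direction. At 40 °C against 35 °C the synthesis genes split into 4 higher and 6 lower and the breakdown genes into 7 higher and 6 lower, beside 32.8% and 36.5% of all tested genes, 69.3% in either direction. Melatonin at 35 °C, where MSTRG.5792 was 72.7% of its level without, came with 0 higher and 8 lower synthesis genes and 1 higher and 8 lower breakdown genes, beside 9.7% higher and 12.3% lower over all tested genes, 22.0% in either direction. The medians were -0.15 and -0.17, beside 0.00 over all genes. The 1 that rose, an alpha-amylase gene (MSTRG.10377), averaged 26.8 ± 0.438 FPKM with melatonin and 19.2 ± 1.83 FPKM without (adjusted p = 0.020). That call was lost without replicate 2 or 3 of the 35 °C group or replicate 2 of 35 °C with melatonin (adjusted p = 0.070, 0.053 and 0.059).

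Melatonin at 40 °C, where MSTRG.5792 was 86.4 times higher in mean FPKM, came with 6 higher and 5 lower synthesis genes and 7 higher and 8 lower breakdown genes, beside 32.9% and 26.2% of all tested genes, 59.1% in either direction. On the FPKM scale, the lists together split into 16 higher and 8 lower by limma, in place of 13 and 13. At 40 °C against 35 °C, both with melatonin, 7 synthesis genes were higher and 5 lower, and 9 breakdown genes were higher and 3 lower, beside 27.3% and 27.5% of all tested genes, 54.7% in either direction. The melatonin effects at the temperatures differed for 21 of the 34 genes, 14 with a higher effect at 40 °C and 7 with a lower one, beside 27.2% and 21.3% over all tested genes, 48.5% in either direction. For MSTRG.5792 that difference was 6.80 ± 0.06 on the log2 scale, not tested.

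The genes most like MSTRG.5792, by the measure used here, were not other starch genes. Likeness was the root mean square difference of log2 scaled counts over the 15 libraries after centring each gene, among 11105 genes with an informative description and at least 5 FPKM in their highest group, and Pearson's r is given as a description over libraries that fall into 5 groups. The closest was a chlorophyll a-b binding protein gene of the light-harvesting antenna, MSTRG.24636, with a difference of 0.521 and r = 0.982. Its means were 111 ± 1.75 FPKM at 40 °C with melatonin, 3.24 ± 0.377 FPKM at 40 °C and 686 ± 21.96 FPKM at 25 °C. A gene for carotenoid cleavage dioxygenase 4 (MSTRG.12806), which splits carotenoids, had a difference of 0.664 and r = 0.996. It had 55.6 ± 2.39 FPKM at 40 °C with melatonin, 2.18 ± 0.316 FPKM at 40 °C and 158 ± 3.62 FPKM at 25 °C.

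The other 6 were a leucine-rich repeat receptor-like kinase gene (MSTRG.16678, a locus with more than 1 gene name), a heavy metal-associated isoprenylated protein gene (MSTRG.2145), a plastid movement impaired 2-like gene (MSTRG.17516), a receptor kinase gene (MSTRG.13556), a WAT1-related gene (MSTRG.7215) and an NSP-interacting kinase 1-like gene (MSTRG.24066), with differences of 0.565 to 0.849. Of the 8, 0 kept the strict order of the groups that MSTRG.5792 has. The 8 were chosen for likeness over these libraries, so a fall at 40 °C and a rise with melatonin there follow from the choice. All 8 were lower at 40 °C than at 25 °C by 6.09 or more on the log2 scale, from -7.67 to -6.09. With melatonin at 40 °C they were higher by 3.91 to 5.23, beside 6.24 for MSTRG.5792. In the starch lists the closest was MSTRG.8740, at 1.94 with r = 0.767, and the highest r was 0.965, for a gene of the chloroplast maltose exporter (MSTRG.16972). That r lies within the range of the 8, 0.948 to 0.996. Ranked by r in place of the difference, the 8 highest genes were also from outside the starch lists. They shared only 1 gene with the 8 above, MSTRG.12806.

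**Figure D4:**
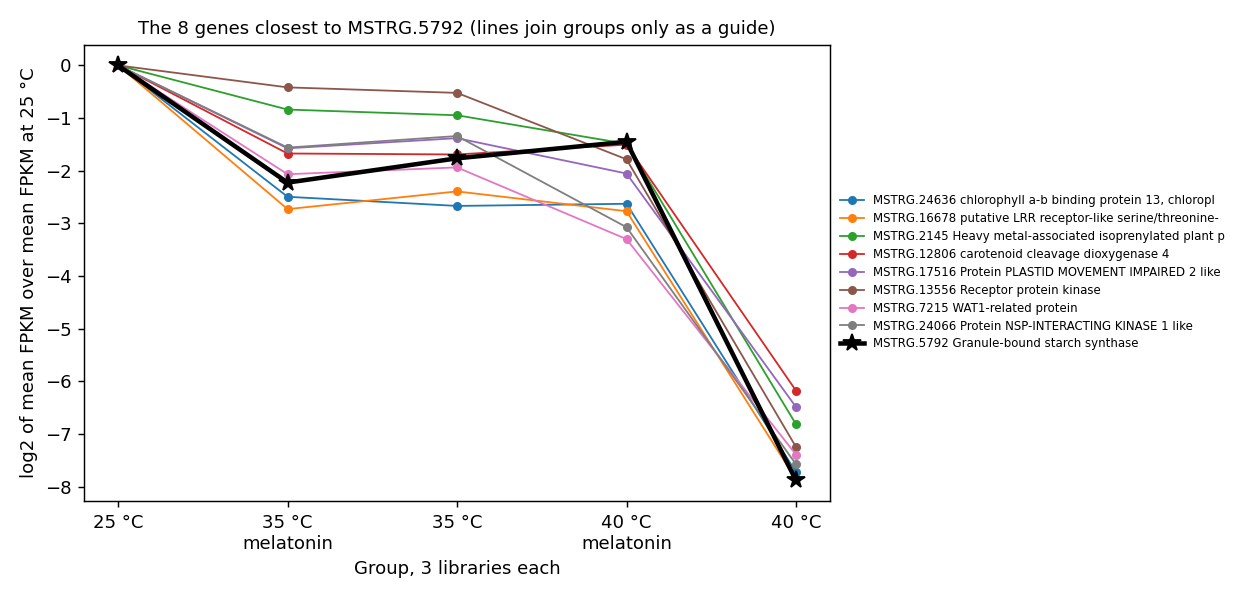
Log2 of the mean FPKM in each group over that at 25 °C for MSTRG.5792 (star, thick line) and the 8 genes closest to it. The 8 were chosen for likeness over these libraries, so their similar shape follows from the choice. All 9 are lowest at 40 °C, and with melatonin at 40 °C MSTRG.5792 lies highest, at 36.6% of its 25 °C mean.

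Of the 5 listed loci on each side of MSTRG.5792 on chromosome 3, 8 were tested. At 40 °C against 25 °C 7 rose and 1 fell, beside 37.3% and 38.6% of all tested genes. The one that fell, a 60S acidic ribosomal protein P1-like gene (MSTRG.5791) that ends 1391 bases before it on the other strand, averaged 143 ± 0.623 FPKM at 40 °C and 185 ± 8.35 FPKM at 25 °C (-0.28, adjusted p = 0.0014). On the other side, a locus described as a pentatricopeptide repeat gene (MSTRG.5794), 3608 bases away, averaged 3.43 ± 0.491 FPKM at 40 °C and 1.57 ± 0.237 FPKM at 25 °C (1.22, adjusted p = 8.1e-06). Its listed enzyme number (3.2.1.1) and orthology term (K01176) are those of the alpha-amylase genes, unlike its description. A small heat shock protein gene (MSTRG.5787), whose product binds unfolding proteins, begins the set, with 32896 bases between it and MSTRG.5792. It averaged 1928 ± 43.0 FPKM at 40 °C and 0.749 ± 0.200 FPKM at 25 °C (11.40, adjusted p = 8.7e-17). It averaged 3464 ± 24.3 FPKM with melatonin at 40 °C, against 1928 ± 43.0 FPKM without (0.65, adjusted p = 3.7e-05). It therefore rose with melatonin at 40 °C as MSTRG.5792 was higher there, while its change with heat was opposite.

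The remaining tested neighbours rose at 40 °C against 25 °C by 0.29 to 3.42 on the log2 scale. They were genes for a polyadenylate-binding protein (MSTRG.5789), a cytosolic iron-sulfur assembly protein (MSTRG.5790), a One cut domain family member 2-like protein (MSTRG.5795, under 1 FPKM in every group mean) and a StAR-related lipid transfer protein (MSTRG.5796), and a locus opposite the last (MSTRG.5798). The call for MSTRG.5795 was lost without replicate 2 or 3 of either group (adjusted p = 0.073 to 0.091). With melatonin at 40 °C, 5 of the 8 neighbours fell and 1 rose, beside 26.2% and 32.9% of all tested genes. The calls of 2 that fell, MSTRG.5789 and MSTRG.5794, were lost on the FPKM scale (adjusted p = 0.33 and 0.27 by limma). Loci MSTRG.5788 and MSTRG.5797, on the strand opposite a listed gene, were at 0 in most libraries and were not tested. MSTRG.5796, the gene opposite MSTRG.5797, had group means of 1507 to 2736 FPKM. Whether the counting used strand is not stated, so how reads of opposite loci were assigned is not known.

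**Figure D5:**
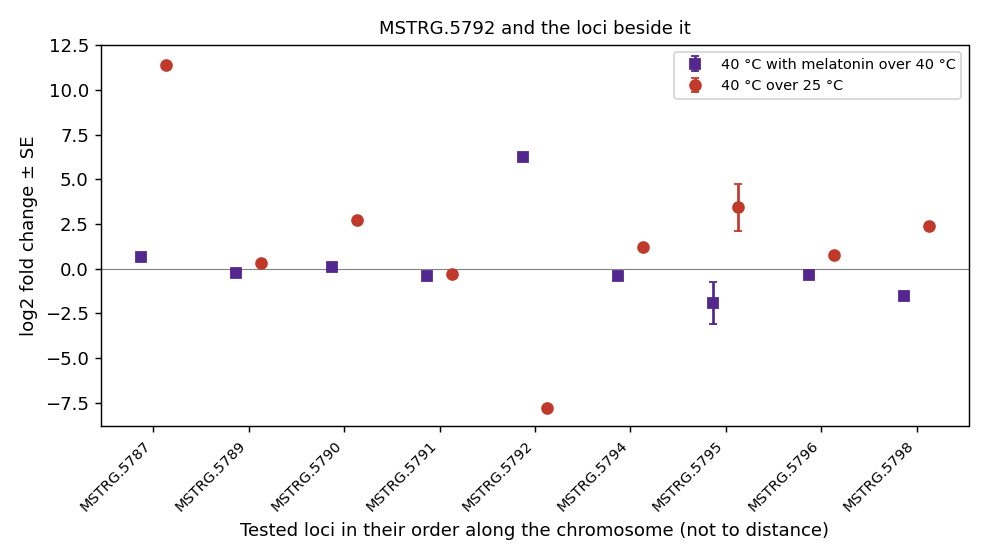
Log2 fold change ± SE of MSTRG.5792 and the 8 tested loci beside it, in their order along the chromosome, for 40 °C with melatonin over 40 °C (squares) and 40 °C over 25 °C (circles). MSTRG.5792 lies at 6.24 and -7.79; of the neighbours, MSTRG.5791 alone fell at 40 °C.

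Of 16 genes of the circadian clock, all tested, 10 rose and 5 fell at 40 °C against 25 °C, beside 37.3% and 38.6% of all tested genes, with a median log2 fold change of 0.99 beside -0.01. With melatonin against none at 40 °C, 6 rose and 7 fell, beside 32.9% and 26.2%, with a median of 0.01 beside 0.10. The largest changes among members with at least 5 FPKM were in a response regulator-like gene (MSTRG.21108), of the family of pseudo-response regulators, with 66.2 FPKM at 40 °C and 1.04 FPKM at 25 °C (6.07 ± 0.18, adjusted p = 2.9e-13), and in a REVEILLE gene (MSTRG.13765), of the MYB-like family of CCA1 and LHY, with 44.8 FPKM at 40 °C and 0.977 FPKM at 25 °C (5.60 ± 0.12, adjusted p = 1.1e-14). The REVEILLE gene had 2.22 FPKM with melatonin at 40 °C, against 44.8 FPKM without, and the response regulator-like gene 15.2 FPKM, against 66.2 FPKM without. Another response regulator-like gene (MSTRG.5801) rose by 2.98 ± 0.09 (adjusted p = 3.3e-13) and a XAP5 circadian timekeeper-like gene (MSTRG.19903) by 2.39 ± 0.06 (adjusted p = 6.2e-14). With melatonin at 40 °C, MSTRG.5801 was higher still, at 63.4 FPKM against 37.1 FPKM without, and MSTRG.19903 lower, at 51.3 FPKM against 78.7 FPKM. Other REVEILLE genes, named after their values were seen, split at 40 °C against 25 °C. MSTRG.18265 rose (1.89), while MSTRG.11865 (-1.86) and MSTRG.5598 (-0.85) fell. With melatonin at 40 °C, MSTRG.18265 fell (-1.83), MSTRG.11865 rose (0.91) and MSTRG.5598 was not called. The part of the clock genes in the level of MSTRG.5792 was not tested, and the labels do not give the time of day of sampling.

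Library totals were 54300447 to 68267949 counts. Leaf markers, 13 genes for Rubisco small subunits and chlorophyll-binding proteins, were present in all groups, with 12 at 1 FPKM or more in each. Their summed level was 12880 to 14000 FPKM in the libraries at 40 °C with melatonin, 3386 to 3439 FPKM in those without and 14930 to 17840 FPKM in the other groups, so it moved with MSTRG.5792 at 40 °C: 13 of 13 fell at 40 °C against 25 °C, beside 38.6% of all tested genes, and 13 of 13 rose with melatonin at 40 °C, beside 32.9%. Its part in that result was not tested. Epidermis markers (19 genes) summed to 17.1 to 18.2 FPKM in the libraries at 40 °C with melatonin, 18.1 to 19.7 FPKM in those without and 240 to 247 FPKM in the 25 °C libraries, and thus stayed low where MSTRG.5792 was higher with melatonin. The 15 phloem genes summed to 82.8 to 86.7 FPKM at 40 °C with melatonin, 94.4 to 98.8 FPKM at 40 °C and 281 to 289.5 FPKM at 25 °C, though of 14 tested 7 rose and 4 fell with melatonin at 40 °C (median 0.80, beside 0.10 over all genes). At 35 °C the phloem sum was 141 to 144 FPKM with melatonin and 451 to 459 FPKM without. With melatonin at 35 °C it was thus lower, as MSTRG.5792 was. Without melatonin it was higher at 35 °C than at 25 °C, while MSTRG.5792 was lower. The epidermis sum at 35 °C was 239 to 243 FPKM with melatonin and 175 to 177 FPKM without. The part of either sum was not tested. The 7 xylem genes summed to under 7 FPKM throughout. Counts on the mitochondrial sequence made up 0.0566 to 0.0690% of the libraries at 40 °C with melatonin, 0.202 to 0.222% of those without and 0.0204 to 0.0266% of the 25 °C libraries, and their part was not tested either. In bulk leaf RNA, fewer cells that carry a transcript and less of it per cell cannot be told apart.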

How the data were processed

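Leaf RNA of 15 libraries in 5 labelled groups was analysed from 1 deposited table. Per the labels' protocols, RNA was extracted with Trizol, selected with oligo(dT) and made into dUTP-marked libraries, and the submitters' processing notes name cutadapt 1.9, HISAT2 2.0.4 and StringTie 1.3.4d with no role. Per the file headers, the authors deposited a count and an FPKM value per gene and library. The count values are whole and not normalized; even numbers made up 58.8 to 63.0% of the counts from 1 to 20, so mates of a pair may have been counted singly and counting intervals may be too narrow. CK in a column name was taken to mean no melatonin and MT melatonin. Not used were 6 value columns that match no sample.

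Differences were fitted with edgeR 4.0.16 (R 4.3.3): TMM scaling, filterByExpr, 5 group means, 10 residual degrees of freedom, no covariate, quasi-likelihood test, two-sided, Benjamini-Hochberg over 26183 genes within each of 7 comparisons, called at adjusted p under 0.05. MSTRG.5792 is among these genes in the fit, but its p-values are not used or given. That is what "not tested" means where it is said of this gene. Each SE of a log2 fold change is its absolute value divided by the square root of its quasi-likelihood F statistic. It need not equal the spread between libraries. The script was tested on simulated counts. Libraries of 1 group differed by more than sampling noise in every pair (chi-square per degree of freedom 17.98 to 41.77). Alternatives used DESeq2 1.42.0 and limma 3.58.1 and are reported in the closing section.

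The gene, lists and tests were chosen with earlier results of these data known. Lists hold genes matched by words in their descriptions, strays left in. Genes named are MSTRG.5792; all other starch synthases; per comparison, the 2 called starch genes with the smallest adjusted p in each direction; the 8 genes most alike; the 5 loci on each side; and the 4 clock genes with the largest called change at 40 °C against 25 °C. Any further gene is marked as chosen after its values were seen or given for an extreme in its list. Gene sequences were not used here.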

Additional observations from a re-analysis of the deposited data

Results flagged for a closer look

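MSTRG.5792 was set apart because its melatonin effects had opposite signs: all 3 melatonin libraries were above those without at 40 °C and below them at 35 °C. The difference of the log2 effects was 6.80, and it was not tested because the gene was chosen for these levels.

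For other starch genes the difference of melatonin effects was tested as an interaction in edgeR's quasi-likelihood fit. It passed for 21 of 34, beside 48.5% of all tested genes. The phosphoglucan phosphatase gene MSTRG.17142 had a difference of 1.41 ± 0.08 (adjusted p = 4.2e-09) and the granule-bound starch synthase gene MSTRG.14122 one of 1.25 ± 0.08 (adjusted p = 5.6e-09). The beta-amylase 4 gene MSTRG.2591 differed by -1.23 ± 0.04 (adjusted p = 7.8e-12) and the branching enzyme gene MSTRG.10053 by -1.26 ± 0.07 (adjusted p = 2.1e-09), with a stronger decrease at 40 °C than at 35 °C in both.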

How the results depend on the processing

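All values of MSTRG.5792 are log2 fold changes, and none changed sign. At 35 °C over 25 °C it was -1.864 with RLE scaling and with DESeq2, -1.761, -1.765 and -1.763 with limma on log2(FPKM + 1), + 0.1 and + 0.5, and -1.765 as the ratio of mean FPKM. At 40 °C over 25 °C it was -7.56 with limma (+ 1). At 40 °C over 35 °C it was -5.799 and -6.085 with limma (+ 1 and + 0.1) and -6.118 as the ratio. For melatonin at 35 °C it was -0.5485 with no count filter, -0.5423 with the compared groups alone, -0.4588, -0.4606 and -0.4598 with limma (+ 1, + 0.1 and + 0.5), and -0.4608 as the ratio. For melatonin at 40 °C it was 6.113 and 6.4 with limma (+ 1 and + 0.1) and 6.433 as the ratio. At 40 °C over 35 °C, both with melatonin, it was 0.8194 with RLE and with DESeq2, 0.8097 with no count filter, 0.8157 with the compared groups alone, 0.773, 0.7757 and 0.7745 with limma, and 0.776 as the ratio. The difference of melatonin effects was 6.572 with limma (+ 1). Limma (+ 1) without its filter on low values gave the same values as with it. Leaving out 1 library gave -1.834 to -1.809, -7.813 to -7.713, -5.988 to -5.889, -0.5674 to -0.5369, 6.151 to 6.251, 0.8308 to 0.8468 and 6.694 to 6.812, in the same order of comparisons.

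Replicate numbers did not pair the libraries: deviations of 30 same-numbered pairs correlated between -0.101 and 0.076. Those of 60 different-numbered pairs correlated between -0.14 and 0.206. Both of these extremes were between a library at 40 °C and one at 40 °C with melatonin. With the number as a replicate block, MSTRG.5792 had -1.83, -7.79, -5.97, -0.57, 6.24, 0.84 and 6.81, and 21, 26, 23, 17, 25, 24 and 21 starch genes were called. Total counts of called starch genes stayed within 1.5 times under every alternative. By direction, lower calls for melatonin at 40 °C numbered 8 with limma in place of 13, those for 40 °C over 35 °C with melatonin 5 without replicate 2 of 40 °C with melatonin in place of 8, and the 1 higher call for melatonin at 35 °C became 2 with limma and 0 without replicate 2 of either group. Of 1387 checks on single named genes, 71 lost the call, in 15 of 89 gene and comparison pairs, and 0 reversed; the cause was not tested. On log2(FPKM + 1) the median of all genes shifted by 0.13 for melatonin at 40 °C and by -0.12 for 40 °C over 35 °C. Ranking likeness by Pearson's r in place of the root mean square difference kept 1 of the 8 genes most alike. The strict order held for 23 genes with TMM-scaled counts in place of FPKM, an alternative chosen after seeing the data.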

Other observations

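Sucrose genes (synthases, phosphate synthases, invertases and transporters), matched in the same way, are the other side of leaf carbon storage. Of 30 tested, 6 rose and 18 fell at 40 °C against 25 °C (median log2 fold change -0.75, beside -0.01 over all tested genes), beside 37.3% and 38.6% of all tested genes. At 35 °C against 25 °C, 6 rose and 13 fell, beside 25.5% and 23.6%. Melatonin against none came with 3 higher and 3 lower at 35 °C, beside 9.7% and 12.3%, and with 11 higher and 8 lower at 40 °C, beside 32.9% and 26.2%.

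A drop of 5 or more on the log2 scale at 40 °C against 25 °C was found for 1505 tested genes, MSTRG.5792 among them. Of these, 458 were higher by 5 or more with melatonin at 40 °C than without, beside 523 among all 26183 tested genes. The comparisons share the 40 °C libraries, so a chance low value there would enter both.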
